A study of Homo sapiens with 12 samples.

Results

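The clustered protocadherin genes are 53 protein-coding genes on chromosome 5, taken by symbol from the RefSeq gene table out of 20033 protein-coding genes. They comprise 15 alpha genes (PCDHA1 to PCDHA13, PCDHAC1 and PCDHAC2), 16 beta genes (PCDHB1 to PCDHB16) and 22 gamma genes (12 PCDHGA, 7 PCDHGB and 3 PCDHGC genes). All 53 entered the counts of peaks, with no filter on low values, and the 47 with a promoter entry entered the counts on promoter sequence. The data are Flag ChIP-seq peak lists from U2OS, a human osteosarcoma cell line, that expressed a Flag-tagged protein without nuclease activity under tet-on control. One line made REXO4-D386A, from an RNA exonuclease family protein, and the other made RNaseH1-D210N, from the enzyme that cuts the RNA strand of RNA:DNA hybrids. Each line was grown with doxycycline at 1 µg/ml or without it for about 60 h, with 2 ChIP libraries and 1 input library per condition, giving 12 libraries in 8 groups (ChIP and input, with and without doxycycline, in each line). Both proteins come from transgenes in addition to the cells' own genes, and the labels do not say whether a line is a single clone. The question set by the series was whether the 2 proteins bind R-loops, in which RNA pairs with 1 DNA strand and displaces the other. There is 1 peak list per protein, with 1460 peaks for REXO4 and 54623 for RNaseH1. Which libraries and which doxycycline condition a list rests on is not stated, and no value per library was analysed. The counts below therefore have no replicate error and no test. Peak lists hold no expression levels, so the labelled cell type was not checked against its markers.

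Protocadherins of these clusters are cadherin-like adhesion proteins best known from neurons, where each cell displays its own combination and thereby tells itself from others. In the alpha and gamma clusters each gene has its own promoter and a large variable first exon, which encodes the extracellular, transmembrane and first cytoplasmic parts, and all first exons of a cluster are spliced to the same constant exons at its far end. Beta genes have no constant exons and lie in the same orientation as the others. The promoters of most members carry a conserved element bound by CTCF, alpha exons often hold a further CTCF site inside the exon, and antisense RNAs are known to start within alpha variable exons. The C-type genes (PCDHAC1, PCDHAC2 and PCDHGC3 to PCDHGC5) differ from the rest in being used more uniformly between neurons.

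Of the 53 members, 47 matched an entry of the RefSeq promoter table (GRCh38.p14). The 250 bases before the start are shown here for 6 of them, chosen to span the outcomes described below. The peaks of PCDHAC2, PCDHGC3 and PCDHGB7 covered the gene's start, those of PCDHA12 lay downstream of it, that of PCDHB5 had its summit 1908 bases after it, and PCDHA1 had none. Capitals mark the letters TGNCGCT, searched on both strands.
PCDHAC2, chr5:140966226-140966475, plus strand: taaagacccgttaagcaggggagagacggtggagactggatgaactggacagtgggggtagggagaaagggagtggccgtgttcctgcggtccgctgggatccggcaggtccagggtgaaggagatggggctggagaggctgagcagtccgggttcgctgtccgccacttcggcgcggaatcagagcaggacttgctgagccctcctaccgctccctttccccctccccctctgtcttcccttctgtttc
PCDHGC3, chr5:141475716-141475965, plus strand: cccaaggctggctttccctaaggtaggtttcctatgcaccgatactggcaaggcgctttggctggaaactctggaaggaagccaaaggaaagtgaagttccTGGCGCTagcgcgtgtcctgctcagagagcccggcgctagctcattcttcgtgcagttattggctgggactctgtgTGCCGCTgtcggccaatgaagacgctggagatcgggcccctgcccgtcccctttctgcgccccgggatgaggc
PCDHGB7, chr5:141417427-141417676, plus strand: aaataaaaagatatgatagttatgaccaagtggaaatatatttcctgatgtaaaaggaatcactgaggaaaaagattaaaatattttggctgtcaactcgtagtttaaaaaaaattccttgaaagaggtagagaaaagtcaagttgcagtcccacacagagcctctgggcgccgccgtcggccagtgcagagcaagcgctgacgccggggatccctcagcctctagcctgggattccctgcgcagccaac
PCDHA12, chr5:140875058-140875307, plus strand: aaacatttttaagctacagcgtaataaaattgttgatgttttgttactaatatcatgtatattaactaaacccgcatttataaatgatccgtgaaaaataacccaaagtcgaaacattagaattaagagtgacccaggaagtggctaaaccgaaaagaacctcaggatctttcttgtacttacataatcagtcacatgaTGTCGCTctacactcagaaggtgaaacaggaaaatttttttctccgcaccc
PCDHB5, chr5:141134956-141135205, plus strand: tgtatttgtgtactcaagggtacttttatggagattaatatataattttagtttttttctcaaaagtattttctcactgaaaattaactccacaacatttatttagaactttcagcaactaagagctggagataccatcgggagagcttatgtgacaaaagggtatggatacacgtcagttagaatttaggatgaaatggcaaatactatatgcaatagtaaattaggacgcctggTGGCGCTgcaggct
PCDHA1, chr5:140785890-140786139, plus strand: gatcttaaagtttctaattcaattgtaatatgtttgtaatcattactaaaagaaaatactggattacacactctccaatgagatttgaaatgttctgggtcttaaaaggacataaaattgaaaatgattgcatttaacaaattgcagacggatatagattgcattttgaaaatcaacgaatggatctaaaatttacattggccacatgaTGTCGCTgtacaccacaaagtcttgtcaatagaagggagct

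RNaseH1 peaks lay at the variable first exons of 26 of the 53 members, and REXO4 peaks at none. The window counted for each gene ran from 1 kb before its start to 3 kb after it, which holds the promoter and the variable exon, and an overlap of 1 bp was enough. An RNaseH1 peak overlapped this window at 49.1% of members (95% exact binomial interval 35.1 to 63.2, counting error only), below the share of 68.8% among 15794 other protein-coding genes (70.2% of the 742 others on chromosome 5). These others are the genes with a strand in the promoter table, from a gene table of 20033 protein-coding genes. Other genes without a strand there were left out and their share was not counted. Members without one were kept and read as plus strand. The alpha cluster stood nearest to that background, with 11 of 15 genes (73.3%, 44.9 to 92.2). Beta genes had a peak at 6 of 16 (37.5%, 15.2 to 64.6) and gamma genes at 9 of 22 (40.9%, 20.7 to 63.6). The intervals of the 3 clusters overlap one another. Neighbouring members share sequence and chromatin and are not independent, which the intervals do not cover.

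**Figure D1:**
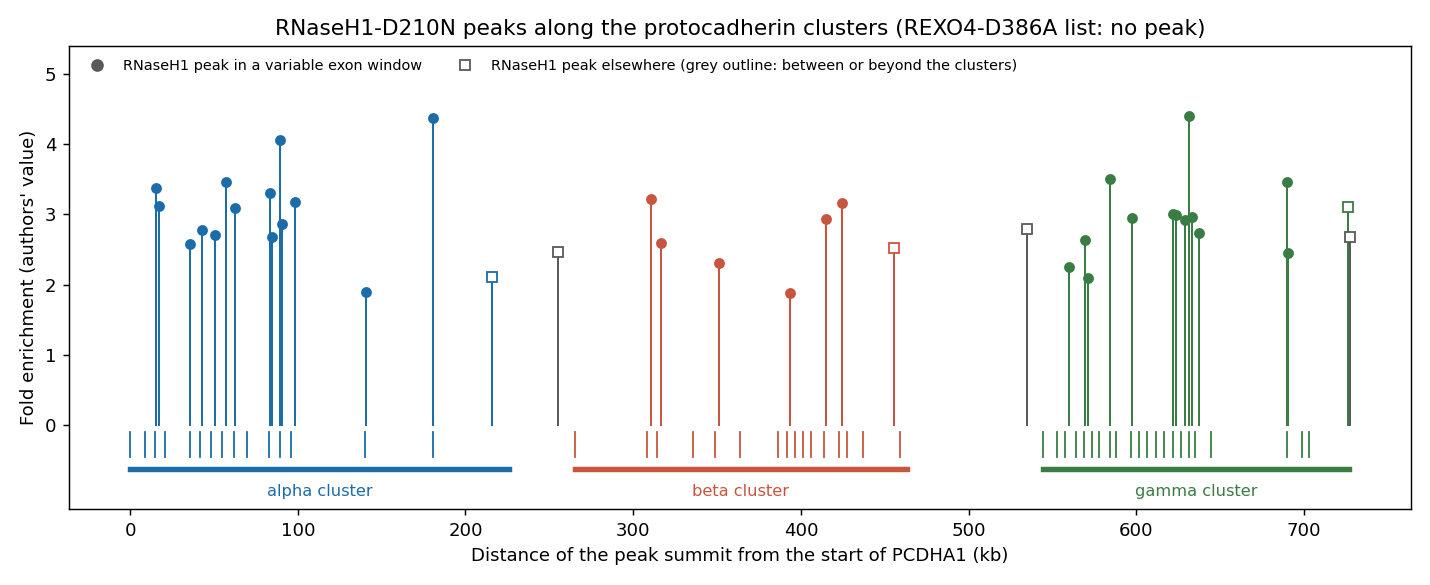
RNaseH1 peaks along the 3 clusters, with the distance of each summit from the start of PCDHA1 (kb) on the x axis and the authors' fold enrichment on the y axis; short ticks mark the 53 gene starts, thick lines the clusters and open squares the 6 peaks outside the windows. Filled points, 33 in all, lie in variable exon windows, and the long stretches at the far ends of the alpha and gamma clusters, where the constant exons are, hold 1 peak each.

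Along the clusters, peaks followed the variable exons. The 3 clusters span 609.7 kb and held 36 RNaseH1 peaks, of which 33 (91.7%) overlapped a variable exon window, while the windows make up 34.6% of that length. By cluster this was 14 of 15 peaks in alpha (windows 26.4% of the length), 6 of 7 in beta (32.2%) and 13 of 14 in gamma (47.4%). Peaks covered 6.40% of the bases of the variable exon windows, 1.22% of the bases between the last variable exon window and the shared gene end, where the constant exons lie, and 0.0747% of the remaining bases. Exon positions were not used, so the stretch with the constant exons also holds other sequence, and 1.22% is not the coverage of the constant exons themselves. The windows of other protein-coding genes were covered more than the variable exon windows, at 15.9%, and chromosome 5 as a whole less, at 0.643%. The peaks numbered 59.0 per Mb in the clusters, against 12.7 per Mb over chromosome 5. Gene density differs too, so the rate per Mb does not show more peaks per gene. The clusters have 36 peaks and 53 members in 0.61 Mb. Chromosome 5 has 2299 peaks over 181 Mb, with 742 other protein-coding genes that have a strand.

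The fold of a peak is the authors' own value, the fragments piled up at its summit over the number expected there, and its interval comes from the recovered fragment count. Of the clusters' peaks, 3 lay outside the windows. In the alpha constant region, a peak at 141001993 to 141002472 had a fold of 2.12 (95% interval 1.33 to 3.21). In the authors' deposited table it had a q (the peak caller's p-value after adjustment for multiple testing) of 0.0433. In the gamma constant region, a peak at 141512408 to 141512702, just before the shared end of all 22 gamma genes at 141512975, had 3.11 (2.1 to 4.44). The last lay at 141241421 to 141241670 in PCDHB19P, a transcribed beta pseudogene, with 2.52 (1.55 to 3.90). The other 5 protocadherin pseudogenes of the clusters (PCDHA14, PCDHB17P, PCDHB18P, PCDHGB8P and PCDHGB9P) had no peak within 1 kb.

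Within the windows most summits fell in 1 of 2 ranges of position, whose limits were not among the planned counts, so the shares below are descriptive. Of the 33 summits, 12 lay in the first 500 bases after the start and 18 between 1500 and 2500 bases after it, with 3 between these and 0 upstream of the start. Other protein-coding genes had 47.9% of their 13530 window summits in the first 500 bases, 5.88% between 1500 and 2500 bases and 27.3% upstream, where the members had 36.4%, 54.5% and 0%. The 13530 are counted per gene from 12275 peaks, so a peak shared by neighbouring genes counts for each. Members lie on 1 strand, while a peak at the start of an opposite-strand neighbour counts as upstream. The part of this layout in the 27.3% was not tested. The near summits lay 2 to 407 bases after the start (median 312) and the far ones 1551 to 2340 bases after it (median 2134). Each group of summits came from as many genes as summits, and 6 genes had both. Of the 26 members with a peak, 13 (50.0%) had none within 1 kb of the start, against 480 of 10859 (4.42%) of the other protein-coding genes with a peak. Exon ends were not used here.

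**Figure D2:**
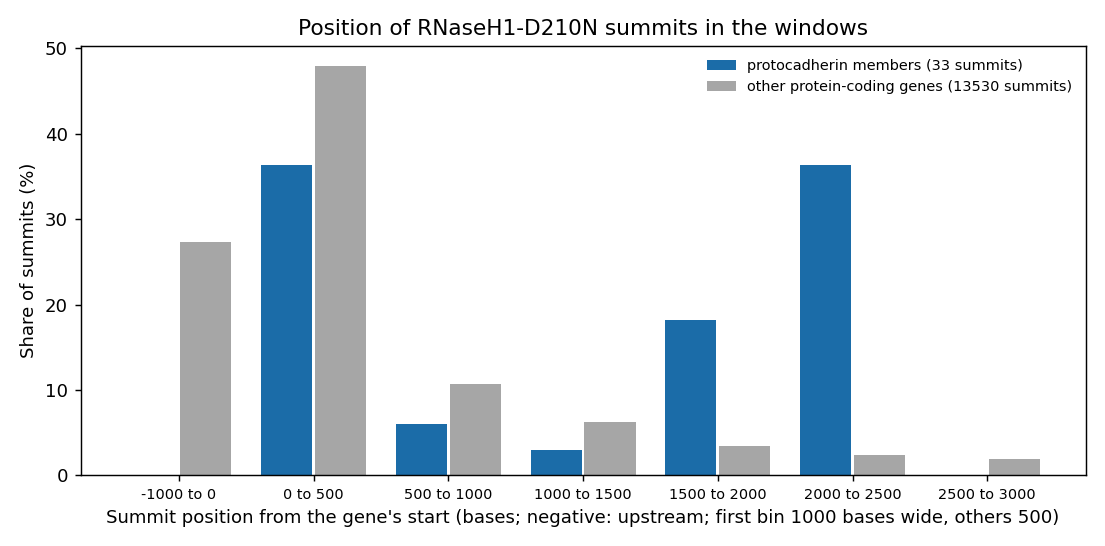
Position of RNaseH1 summits from the gene's start (bases, x axis) as a share of all summits in the windows (%, y axis), for the 33 summits of members and the 13530 of other protein-coding genes, where a shared peak counts for each gene. Members show 36.4% of summits from 0 to 500 and again from 2000 to 2500 bases, and none upstream, where other genes have 27.3%.

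Alpha and gamma genes had summits at both positions, and beta genes, with 6 summits in all, at the far one. Alpha genes had 7 near summits (151 to 407 bases, median 331) and 6 far ones (median 2206). All 6 beta summits were far, from 1769 to 2325 bases after the start. Gamma genes had 5 near summits (2 to 352 bases, median 56) and 6 far ones (1736 to 2213 bases). Near summits had a median fold of 3.34 (1.90 to 4.40) and far summits one of 2.88 (1.88 to 3.46), ranges that overlap widely. With a window of 1 kb on either side of the start, which leaves out the far position, 7 alpha, 0 beta and 6 gamma genes had a peak, 24.5% of members against 65.7% of other protein-coding genes. From 250 bases before to 50 after the start, 6 members (11.3%) had one, against 58.4% of other protein-coding genes.

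In the alpha cluster, peaks marked most first exons from PCDHA3 onward. PCDHAC2, the C-type gene nearest the constant exons, had the peak of lowest q among the members, at 140966165 to 140967014, with a fold of 4.37 (95% interval 3.43 to 5.50), a q of 4.75e-22 in the authors' deposited table and 71 fragments at its summit where 15.5 were expected. The peak covered the start, with its summit 151 bases after it. PCDHAC1, the other alpha C-type gene, had the widest peak of the members, 1298 bp from 140926287 to 140927584, but a fold of only 1.90 (1.35 to 2.59), since 37 fragments stood against an expected 19.0. The intervals of these neighbours do not overlap.

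PCDHA12 had the highest fold of the other alpha genes, 4.06 (2.56 to 6.17) at 140875441 to 140875847, from 20 fragments against an expected 4.17. That summit lay 320 bases after its start, with a further summit at 1551 bases with 2.86 (1.82 to 4.30). PCDHA3 likewise had a pair of peaks, at 407 bases (140801327 to 140801576, 3.38, 2.15 to 5.09) and 2114 bases (3.12, 1.89 to 4.90), and so did PCDHA11, at 353 bases (140869201 to 140869490, 3.30, 2.08 to 5.02) and 2048 bases (2.67, 1.60 to 4.24). These 3 genes thus carried both positions, at folds that do not differ within a gene beyond counting error. PCDHA5 (304 bases, fold 2.58) and PCDHA9 (383 bases, 3.09) had the near summit alone. PCDHA7 (2317 bases, 2.71), PCDHA8 (2297 bases, 3.46, at 140843180 to 140843657) and PCDHA13 (2340 bases, 3.18, at 140884328 to 140884618) had the far one alone, and PCDHA6 had its only summit between them, at 1314 bases (2.78). No peak was called at PCDHA1, PCDHA2, PCDHA4 and PCDHA10.

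A minus-strand lncRNA, LOC112267934 (140868057 to 140875891), is annotated across PCDHA11 and PCDHA12. It starts 583 bases inside PCDHA12, antisense to it, and the near PCDHA12 summit lies 263 bases downstream of that antisense start. The lncRNA body also runs over both PCDHA11 peaks. The peaks carry no strand, so the peak list cannot say which of the 2 RNAs a signal belongs to.

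**Figure D3:**
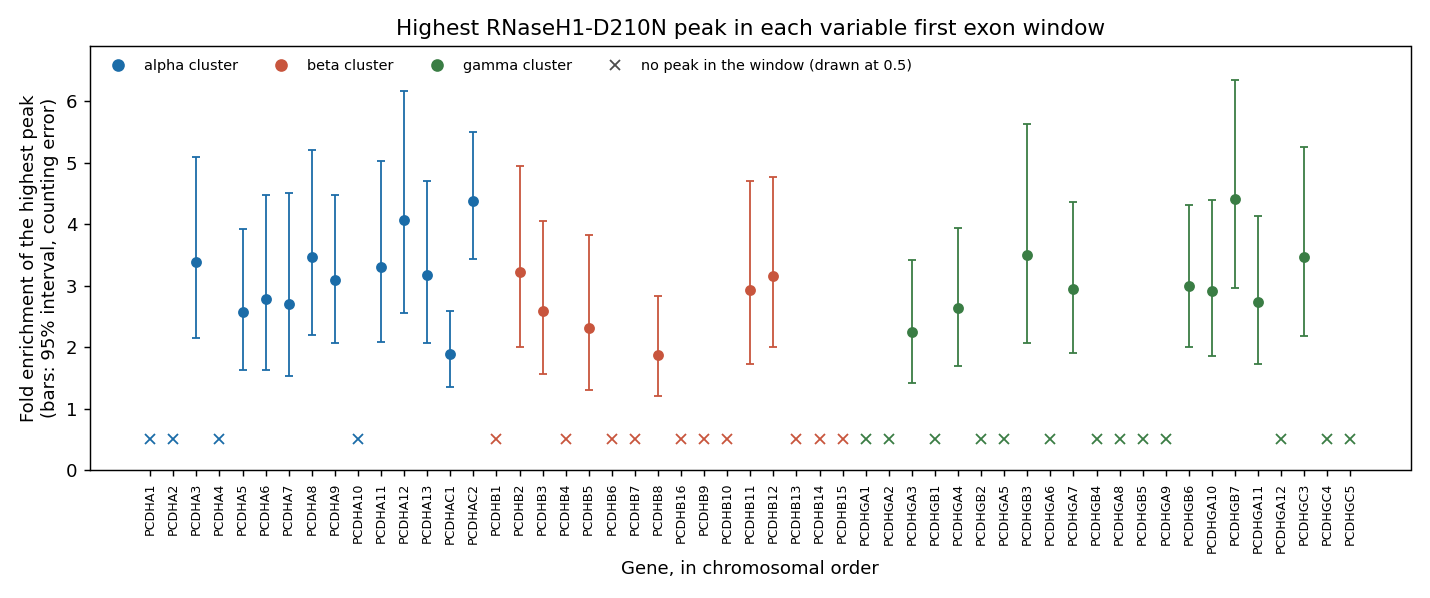
Fold enrichment of the highest RNaseH1 peak in each member's window (y axis, authors' value; bars are 95% intervals from the fragment counts, counting error only), with the 53 genes in chromosomal order on the x axis and crosses for the 27 genes with no peak. Folds run from 1.88 at PCDHB8 to 4.40 at PCDHGB7, and most intervals overlap.

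In the beta cluster, 6 genes had 1 peak each, and all 6 summits lay between 1769 and 2325 bases after the start. PCDHB2 had 3.22 (2.00 to 4.94) at 2045 bases, in a peak at 141096546 to 141096990, PCDHB12 had 3.16 (2.01 to 4.76) at 2192 bases and PCDHB11 had 2.93 (1.72 to 4.71) at 1769 bases. PCDHB3 (2.59 at 2325 bases), PCDHB5 (2.31 at 1908 bases) and PCDHB8 (1.88 at 1942 bases) were weaker. In the authors' deposited table the q of the PCDHB5 peak was 0.0727 and that of the PCDHB8 peak 0.118, the highest among the members. PCDHB1, PCDHB4, PCDHB6, PCDHB7, PCDHB9, PCDHB10, PCDHB13, PCDHB14, PCDHB15 and PCDHB16 had none. PCDHB1 lies apart from the others at the near end of its cluster and, as background, lacks the conserved promoter element.

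In the gamma cluster, the peaks over gene starts belonged to B-type and C-type genes. PCDHGB7 had the highest fold of all members, 4.40 (2.96 to 6.34), in a peak at 141417518 to 141418176 that covered its start, and a further peak at 1952 bases with 2.96 (1.86 to 4.49). PCDHGB3 had 3.5 (2.06 to 5.63) with a summit at 71 bases, in a peak at 141370160 to 141370560. PCDHGB6 had 3.0 (2.01 to 4.32) at 2 bases and 2.99 (1.84 to 4.63) at 1736 bases. PCDHGC3, a C-type gene, had 3.47 (2.18 to 5.26) at 56 bases, in a peak at 141475818 to 141476168, and 2.46 (1.53 to 3.77) at 632 bases. With PCDHAC1 and PCDHAC2, these 4 were the 6 members whose start lay under a peak.

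None of the 12 PCDHGA genes had a peak over its start. Of them, 5 had a peak further inside. PCDHGA4 had summits at 352 bases (2.63, 1.69 to 3.93) and 2213 bases (2.09, 1.25 to 3.31), and the far peak had a q of 0.0973 in the authors' deposited table. PCDHGA7 had 2.95 (1.91 to 4.36) at 785 bases. PCDHGA3 (2.25), PCDHGA10 (2.92) and PCDHGA11 (2.73) had far summits alone, at 2201, 2153 and 2209 bases. No peak was called at PCDHGA1, PCDHGA2, PCDHGA5, PCDHGA6, PCDHGA8, PCDHGA9, PCDHGA12, PCDHGB1, PCDHGB2, PCDHGB4, PCDHGB5, PCDHGC4 and PCDHGC5. From PCDHGB6 to PCDHGA11, 4 consecutive genes had peaks, while the run from PCDHGB4 to PCDHGA9 had none.

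These peaks rested on few fragments. The 33 peaks in members' windows had a median of 20 fragments at the summit (13 to 71) against a median expected 5.95, and a median width of 327 bp. Peaks in the windows of other protein-coding genes had a median of 75 fragments, an expected 23.2 and a width of 714 bp. The folds were alike, with a median of 2.95 in members' windows, 3.01 in those of other genes and 3.07 over the whole list. In the authors' deposited table, a q above 0.05 was given to 3 of the 33 peaks (9.09%), against 0.978% of those at other genes. A member without a peak was therefore not called at this depth, which does not show that it lacks signal. Variable exons of a cluster resemble one another, and how reads that map to several of them were treated is not stated, so the split of signal between neighbours is uncertain. The part of mapping and of exon base composition in where the peaks fall was not tested.

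Promoters of members with a peak over the start had a higher median GC content than the rest, but these members also differed in gene type. The 6 promoters of genes with such a peak had a median GC content of 54.2% (40.8 to 63.2) and a median of 13.5 CpG dinucleotides in 250 bases. These bases end before the start, while the highest summits of the 6 genes lay 2 to 331 bases after it. At PCDHAC1 the peak begins at 140926287 and the gene at 140926299, so most of the 250 bases lie outside the peak. The GC values are therefore not those of the sequence under the peaks. The 17 promoters whose gene had a peak elsewhere in the window had a median GC of 35.2% (30.0 to 44.8), and the 24 with no peak one of 36.8% (31.6 to 57.6). The ranges overlap: PCDHGC4 has 57.6% and no peak, and PCDHGB3 has 40.8% and a peak over its start. All 6 belong to PCDHGB or C-type genes, so the medians do not separate the peak from gene type. Among PCDHGB genes with a peak over the start, PCDHGB3 has 40.8%, PCDHGB6 48.4% and PCDHGB7 45.6%. Those without one are alike, with 44.8% at PCDHGB1, 48.8% at PCDHGB2, 46.4% at PCDHGB4 and 44.4% at PCDHGB5. Other protein-coding genes had a median promoter GC of 62.4%, so most member promoters are poor in GC. In the sequences shown above, PCDHAC2 has 62.4% and 13 CpG, PCDHGC3 60.0% and 15, PCDHGB7 45.6% and 9, PCDHA12 34.8% and 7, PCDHB5 35.2% and 4, and PCDHA1 31.6% and 3. The part of base composition in these calls was not tested.

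**Figure D4:**
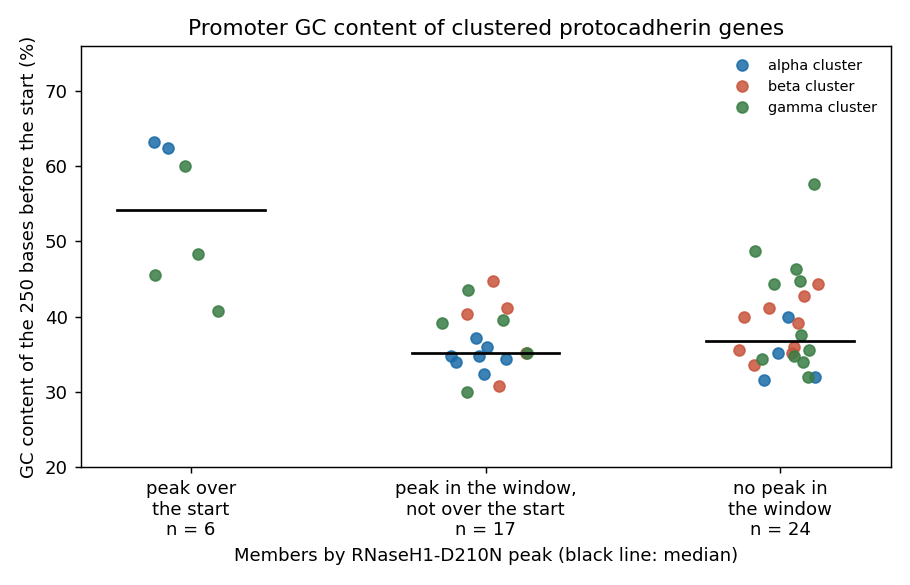
GC content (%, y axis) of the 250 bases before the start for the 47 members with a promoter entry, grouped on the x axis by where their RNaseH1 peak lay; points are genes, coloured by cluster, and lines are medians. The 6 promoters of genes with a peak over the start sit between 40.8 and 63.2%, and the other groups have medians of 35.2 and 36.8%. The 6 are all PCDHGB or C-type genes.

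The letters TGNCGCT, picked here after reading the member promoters, occurred on the plus strand of 29 of 47 member promoters (61.7%) and, on the gene's own strand, in 5.20% of 15794 other protein-coding promoters of the same length. On either strand it was 30 of 47 (63.8%) and 9.88%. In members the first match began at a median position of -58, a negative position being the number of bases before the start. It was found in 10 of 13 alpha, 12 of 14 beta and 7 of 20 gamma promoters. On the plus strand, 14 of the 23 promoters of genes with a peak in the window (60.9%) had it, and 15 of the 24 without (62.5%). Split by the start, it was found in 2 of the 6 promoters whose gene had a peak over the start (33.3%), in 12 of the 17 with a peak elsewhere in the window (70.6%), and in 27 of all 41 with none over the start (65.9%). The members with a peak over the start are 2 alpha, 0 beta and 4 gamma genes, and gamma promoters held the letters least often. The split by the start is therefore mixed with cluster, and also with gene type. Of the 4 gamma genes, PCDHGB3 and PCDHGC3 had the letters, and PCDHGB6 and PCDHGB7 did not, beside 7 of all 20 gamma promoters. The 2 alpha genes, PCDHAC1 and PCDHAC2, are both C-type and had no match, beside 10 of all 13 alpha promoters with one. These differences were not tested. PCDHAC1, PCDHAC2, PCDHB1 and PCDHGC4 were among the promoters with no match in this window.

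No REXO4 peak lay anywhere along the clusters, from 5 kb before PCDHA1 to 5 kb after the shared gamma end. At 0 of 53 members, the data allow a share of up to 5.66% (3 counts of 53, counting error only), which is above the 3.81% of other protein-coding genes with a REXO4 peak in the same window (3.41% within 1 kb of the start and 2.13% from 250 bases before to 50 after it). The absence is thus not a detectable difference from the background. The list held 57 REXO4 peaks on chromosome 5. The nearest before the clusters lay 938 kb away, in NRG2, with a fold of 2.84, and the nearest after them 4700 kb away, in RBM27, with 3.05. The NRG2 peak overlapped an RNaseH1 peak and the RBM27 peak did not.

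Most genes next to the clusters had peaks at their starts. Of the 6 protein-coding genes nearest before the clusters, 5 had an RNaseH1 peak in the same window (IK, WDR55, DND1, HARS1 and HARS2) and ZMAT2 had none. The highest folds of the 5, over the gene and 1 kb on either side, were 2.42 to 3.39. All 6 nearest after the clusters had a peak in the window (DIAPH1, HDAC3, RELL2, FCHSD1, ARAP3 and PCDH1). HARS1 and HARS2 had the same highest fold and interval (3.32, 2.70 to 4.03), as did HDAC3 and RELL2 (2.36, 1.93 to 2.86). A peak shared by neighbouring genes counts for each. TAF7, an intronless gene for a general transcription factor subunit between the beta and gamma clusters, had 2.80 (2.36 to 3.29), with 145 fragments against an expected 51.2, more than any member. SLC25A2, a mitochondrial ornithine carrier beside it, had no peak within 1 kb of the gene.

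**Figure D5:**
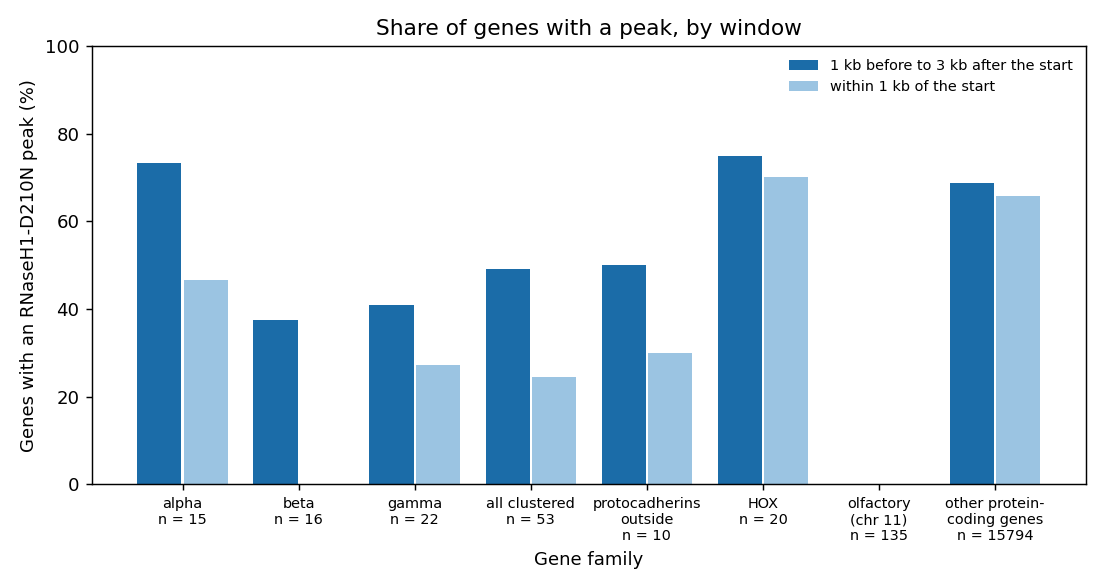
Share of genes with an RNaseH1 peak (%, y axis) in the window from 1 kb before to 3 kb after the start (dark) and within 1 kb of the start (light), for the clusters, 3 comparison families and other protein-coding genes (x axis, n genes each). Clustered members stand at 49.1% and 24.5%, against 68.8% and 65.7% of other protein-coding genes and 0% of chromosome 11 olfactory receptors.

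Other families were counted in the same window, with no test of their difference from the members. Protocadherins outside the clusters are single genes, and of 12 listed, 10 had a strand in the promoter table. A peak lay at 5 of these 10 (50.0%, 18.7 to 81.3), close to the members' 49.1%. Of the 5, 2 had it only beyond 1 kb. PCDH1, the nearest of them on chromosome 5, had 3 peaks, the highest at 2133 bases with a fold of 3.89 (3.04 to 4.90). PCDH17 (2.83) and PCDH8 (2.75) had summits at 2804 and 1450 bases, and PCDH19 (3.82) and PCDH7 (2.66) at 382 and 30 bases. HOX genes, another clustered family of developmental genes, had a peak at 15 of the 20, of 39 in the gene table, with a strand in the promoter table (75%, 50.9 to 91.3, an interval that overlaps the members'), led by HOXD11 (5.90), HOXA4 (4.08), HOXB1 (3.71) and HOXA2 (3.67), and 1 of these 15 had it only beyond 1 kb. Chromosome 11 olfactory receptors, a tandem family mostly silent outside olfactory neurons, had 0 of the 135 with a strand in that table, of 171 in the gene table, which allows up to 2.70% (exact binomial).

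Genes whose products act on or with clustered protocadherins were counted where the promoter table gave a strand. Of 11 CTCF and cohesin genes listed, 10 had a strand and all 10 had a peak, led by PDS5B (4.01), STAG2 (3.40), SMC3 (3.35) and STAG1 (3.30), with CTCF itself at 2.74 (2.29 to 3.24). Of 13 repressor and methylation genes listed, 11 had a strand and 10 of these had a peak, led by WIZ (5.04), EHMT2 (4.34), ATF7IP (3.30) and DNMT3A (3.26), while SETDB1, a histone H3 lysine methyltransferase, had none. SMCHD1, a chromatin protein known in mouse to repress these clusters, had 2.91 (2.46 to 3.42). Of 13 listed genes for partners of the cytoplasmic domains, 11 had a strand and all 11 had a peak, led by ABI2 (4.82), BRK1 (4.61), RYK (3.49) and AXIN1 (3.26). Of 6 listed genes for shedding enzymes, 5 had a strand and all 5 had a peak, led by PSENEN (3.86), PSEN2 (3.66), NCSTN (3.28) and APH1A (3.10). With 68.8% of other protein-coding genes at a peak, no share here is called particular to the pathway. REXO4 peaks lay at 1 of the 10 CTCF and cohesin genes (PDS5B) and 1 of the 11 repressor and methylation genes (TET3). They lay at 2 of the 11 partner genes (RYK and FYN) and at 0 of the 5 shedding enzyme genes. The share among other protein-coding genes was 3.81%, and the difference from these small lists was not tested.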

How the data were processed

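Flag ChIP-seq was made from 2 U2OS lines, and the values analysed were 2 deposited peak lists in hg38. Per the submitters' processing notes MACS2 2.1.0.20150731, deepTools 3.5.1, HISAT2 2.2.1 with Trim Galore 0.6.10, SAMtools 1.17 and Cufflinks are named. The libraries entered, the control, the pooling and the threshold are not stated. The fold (a ratio over the expected pileup) and each peak's −log10 of p and of q are values the authors deposited, and q-values printed here are converted from them. The display score of the deposited lists was not used.

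Summit fragments and the expected pileup were solved from each fold, a ratio of both after adding 1, and the Poisson tail p. A solution within 0.05 of a whole fragment was counted as recovered. This held for all 33 peaks in members' windows and 54494 of 54623 RNaseH1 peaks. Solutions outside that limit were rounded and not removed from the medians of the other groups. Intervals of folds are exact 95% Poisson intervals and cover counting error only. Library depth was not analysed.

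Gene positions came from RefSeq (GRCh38.p14), and strands from its promoter table, which held 15794 other protein-coding genes. PCDHA3, PCDHA13, PCDHB6, PCDHB11, PCDHGA12 and PCDHGC5 were read as plus strand like the rest of their clusters. The constant region ran from 3 kb after the last variable start to the shared gene end. Exon positions were not used. Window assignment, coverage and recovery were checked on simulated data. The members and gene lists were chosen with earlier results of these data known. Every member, every cluster peak outside the windows and the 4 highest folds of each pathway list were named. CTCF, SMCHD1, SETDB1, the genes with REXO4 peaks and the protocadherins outside the clusters beyond that rule, and the shown promoters, were named after their values were seen. Alternatives were other windows, summits, stricter q or fold, and other bounds of the constant region. Scripts ran in Python 3.11.15 with pandas 2.3.3, SciPy 1.17.1, matplotlib 3.10.9 and NumPy 2.4.6.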

Additional observations from a re-analysis of the deposited data

How the results depend on the processing

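The count of 26 members with an RNaseH1 peak was 26 with the summit in the window, 24 with peaks at a q of 0.05 or less and 21 at 0.01 or less. Among other protein-coding genes the share was 68.2%, 68.4% and 67.5% under the same settings, from 68.8%. Stricter q thus lowered the members' count by a larger part than that share. The members' count was 13 within 1 kb of the start, 6 from 250 bases before to 50 after it, and 13 with peaks of fold 3 or more. The narrower windows leave out the far summits by construction, and a fold of 3 lies near the members' median of 2.95. With fold 3 or more, 40.7% of other protein-coding genes had a peak, and the clusters held 15 peaks in place of 36. Coverage of the variable exon windows was then 2.75%, that of the constant region 0.463% and that of the rest 0%. At a q of 0.01 or less the constant region fell to 0.463%, since the alpha peak there drops out, and over the last 5 kb before the shared ends it was 2.95%. With the alpha constant region as annotated, a setting chosen after seeing the data, it was 1.43%. The windows stayed above the constant region in percent covered under the q and fold settings. The REXO4 settings only narrow a count that is already 0, so they say nothing about its stability, and the planned overlap of cluster REXO4 peaks with RNaseH1 peaks gave no value. No paired analysis was possible because the peak lists hold no value per library.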

Other observations

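Upstream of the alpha cluster, the 3 vault RNA genes, short noncoding genes read by RNA polymerase III, had the highest folds of the neighbourhood. VTRNA1-2 had 10.7 (95% interval 9.54 to 11.9), 67.1 kb before PCDHA1, with 327 fragments against an expected 29.8. VTRNA1-1 had 9.19 (7.65 to 10.9) and VTRNA1-3 had 4.71 (3.89 to 5.65). Their folds lay at percentiles 99.7, 99.6 and 95.5 of the RNaseH1 list, while the highest member peak, at PCDHGB7, lay at 93.0.

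Between the alpha and beta clusters, a peak at 141041107 to 141041402, outside annotated genes, had 200 fragments against an expected 80.4 and a fold of 2.47 (2.14 to 2.84). Its expected pileup was above the 3.57 to 19.0 of all 33 peaks in members' windows. A peak at 141513166 to 141513518 began just past the shared gamma end and had a fold of 2.68 (1.64 to 4.15).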
